A study of Mus musculus with 6 samples.

Results

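Phospholipid flippases are P4-type ATPases, membrane pumps that use ATP to move lipids from the outer or luminal leaflet of a membrane to the cytosolic leaflet. Most of them leave the endoplasmic reticulum only in complex with a CDC50 subunit, of which Tmem30a encodes the broadly expressed form, whereas ATP9A and ATP9B work without one. Scramblases let lipids pass in both directions and so undo the asymmetry that flippases build, and lens fibre cells, which elongate greatly as they differentiate, carry a very large area of plasma membrane. The genes described here are Atp10d and 7 relatives, Atp10a, Atp8a1, Atp9a, Atp9b, Atp11a, Atp11b and Tmem30a, matched by gene name in a table of 13024 genes, and all 8 were found. Atp10d was chosen by its difference between the groups in these same libraries, so its values are a description with no test. The other 7 genes were chosen by family, with earlier results of these data known.

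RNA-Seq was performed on whole lenses dissected at E14.5, with 3 pools of control and 3 pools of Gata3 CKO lenses, each pool holding 10 lenses from 5 embryos. Gata3 is a zinc-finger transcription factor expressed in differentiating lens fibre cells. CKO embryos were Gata3 f/f with the Pax6-Cre transgene, in which Pax6 regulatory sequence directs Cre to the ectoderm that forms lens and cornea, and the labels give their genotype as Gata3 -/-. The labels call the controls wild type, while the study's text gives them as Gata3 f/wt in one place and Gata3 f/f in another, in each case without Cre. Both groups were of mixed C57BL/6 and FVB strain, and as Cre was present in CKO embryos alone, Cre itself and loss of Gata3 cannot be told apart. The libraries held 15157230 to 18811104 counts. Values are given as CPM, fragment counts scaled to a common library size after TMM normalisation.

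The targeted gene was read first. Control pools gave 202, 386 and 156 Gata3 counts and pools labelled CKO gave 910, 1064 and 894, so the whole-gene count was higher in the libraries labelled CKO. The floxed segment is exon 4, and a count over all exons does not show whether that exon is present. The study reports excision of this exon in its own RNA-Seq, and lower Gata3 RNA by qPCR with primers that include the exon. Neither was analysed here. As the counts used here do not resolve exons, the second group is named throughout by its label. Control replicate 2 stood apart from the other libraries, with a summed level of 10 lens fibre markers of 50081 CPM against 14798 to 25399 CPM in the other 5, and the fibre markers place these samples as lens.

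Atp10d (ENSMUSG00000046808) lies on the plus strand at chr5:72203329-72298775 of GRCm38, the assembly of mm10, and encodes a flippase of the plasma membrane that is known to act on glucosylceramide. The C57BL/6 reference sequence of mouse carries a premature stop in this gene, and GENCODE M21 annotates the transcript that has a RefSeq match as a polymorphic pseudogene, a class for genes disrupted in the reference strain and intact in others. Its frame has 1469 codons in 23 exons, and a search of the reference found 1 in-frame stop, at codon 817 in exon 12 (chr5:72264471-72264473), after 55.5% of the frame. The pools were of mixed strain and counts per gene do not show which allele a transcript came from, so what protein, if any, these transcripts encoded is not known from these data. Whether the share of each allele differed between the groups is not known either, and its part in the Atp10d level was not tested. Reference sequence around the stop is shown because a count does not give coding potential, with the stop codon in capitals. The stretch that the study's own qPCR primers for Atp10d would amplify is shown with the primer sites in capitals; it joins exons 2 and 3, lies before the stop, and is contained in 2 of 6 annotated transcripts. Both are from the plus strand of GRCm38, and the second is spliced.
Atp10d stop in exon 12, chr5:72264441-72264503: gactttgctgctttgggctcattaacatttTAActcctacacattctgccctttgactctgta
Atp10d amplicon in exons 2 and 3, chr5:72227884-72230333: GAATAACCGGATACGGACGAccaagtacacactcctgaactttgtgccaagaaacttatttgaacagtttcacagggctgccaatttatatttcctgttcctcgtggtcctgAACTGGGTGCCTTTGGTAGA

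Atp10d was read in every pool and was higher in each of those labelled CKO than in any control pool. The control libraries held 166, 148 and 145 Atp10d counts and the libraries labelled CKO 443, 466 and 441. Normalised levels were 10.5, 10.4 and 8.10 CPM in control and 28.7, 23.7 and 22.9 CPM in the CKO-labelled pools. The 2 groups did not overlap, and the gap between the highest control pool and the lowest CKO-labelled pool was wider than the range within either group. The mean level was 9.68 ± 1.37 CPM in control pools and 25.1 ± 3.14 CPM in CKO-labelled pools (SD, n = 3 each), a log2 fold change of 1.38 with a standard error of 0.16, or 2.60-fold. For comparison, 3.67% of the 12879 genes tested had all CKO-labelled pools above all control pools, and nothing is read from this share for Atp10d, which was chosen on this contrast. Leaving out any 1 library gave values from 1.26 to 1.46, and the value was 1.44 without control replicate 2.

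**Figure D1:**
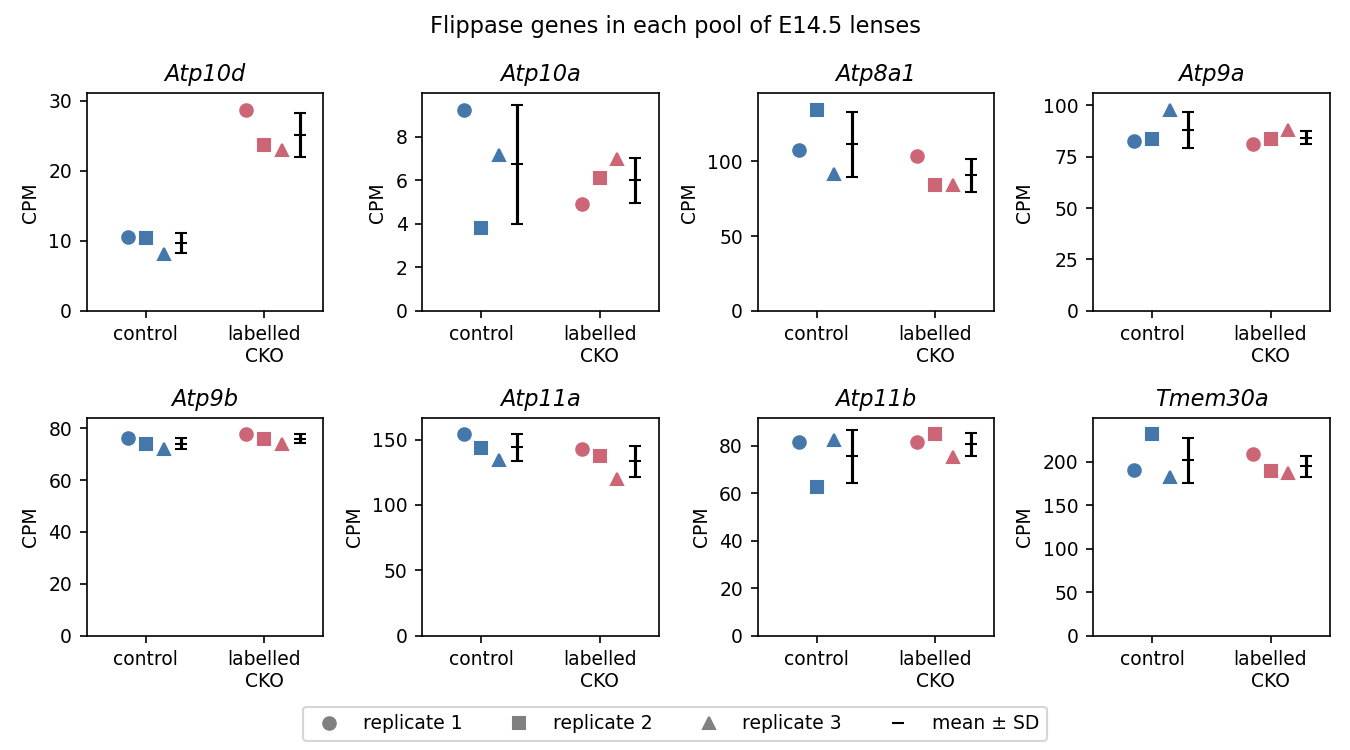
Level of each of the 8 flippase genes in every pool, in CPM on linear axes that start at 0. Blue symbols are control pools, red symbols are CKO-labelled pools, symbol shape gives the replicate number and black bars the mean ± SD (n = 3); the groups are apart for Atp10d, at 8.10 to 10.5 against 22.9 to 28.7 CPM, and overlap for the other 7.

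None of the other 7 genes differed between the groups by the test. Under edgeR's quasi-likelihood test with Benjamini-Hochberg adjustment over all genes tested, 0 of 7 had an adjusted p under 0.05 and 0 of 7 an unadjusted p under 0.05, and in all 7 the ranges of the 2 groups overlapped. Over the whole table this test called 0 of 12879 genes (0%), and 457 genes (3.55%) had an unadjusted p under 0.05. Groups that did not overlap were also uncommon, at 3.67% of genes tested with CKO-labelled pools higher and 4.69% with them lower. DESeq2 called 85 of 12866 genes (0.661%) and 0 of these 7. Fold changes on the log2 scale were above 0 for 2 of the 7 and below 0 for 5, with a median of -0.06 against 0.00 over all genes tested. When library totals alone replaced TMM the median of the 7 was 0.04 and that of all genes 0.10.

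Atp10a (chr7:58656166-58829420), the closest relative of Atp10d among the genes read, encodes a plasma membrane flippase for phosphatidylcholine. Its counts were 146, 54 and 128 in control and 76, 120 and 134 in the CKO-labelled libraries, the lowest of the 8 genes. This gave 9.25, 3.81 and 7.15 CPM in control and 4.93, 6.10 and 6.97 CPM in the CKO-labelled pools. The CKO-labelled values lay entirely within the control range, whose bottom was control replicate 2. The log2 fold change was -0.17 with a standard error of 0.34, and its 95% interval of -0.96 to 0.63 was the widest among these genes (adjusted p = 0.9998, edgeR's quasi-likelihood test). Without control replicate 1 it was 0.15 and without control replicate 2 it was -0.44, so 1 pool set its direction.

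Atp8a1 (chr5:67618140-67847434, minus strand) encodes a flippase for phosphatidylserine and phosphatidylethanolamine that is known from recycling endosomes and shares a chromosome with Atp10d. Its level was 108, 135 and 91.7 CPM in control and 103, 84.2 and 84.4 CPM in the CKO-labelled pools. Control replicate 2 was the highest pool and CKO-labelled replicate 1 lay between the control values. Of the 7 genes it had the lowest log2 fold change, -0.30 with a standard error of 0.16 and a 95% interval of -0.67 to 0.08 (adjusted p = 0.9998, edgeR's quasi-likelihood test). Without control replicate 2 the log2 fold change was -0.13.

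The plasma membrane flippase for phosphatidylserine and phosphatidylethanolamine, Atp11a (chr8:12757014-12868728), was read at 154, 144 and 134 CPM in control and 143, 138 and 120 CPM in the CKO-labelled pools. Its log2 fold change was -0.11 with a standard error of 0.092. Atp11b (chr3:35754106-35856276), known from endosomes and the trans-Golgi network, was read at 81.8, 62.7 and 82.4 CPM in control and 81.5, 84.8 and 75.3 CPM in the CKO-labelled pools. Again a single pool, control replicate 2, lay below the rest. For Atp11b the log2 fold change was 0.09 with a standard error of 0.12, and without control replicate 2 it was -0.016. Both groups overlapped for each of these genes.

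Atp9a (chr2:168634438-168742409, minus strand) and Atp9b, the pair that needs no CDC50 subunit, are known from endosomes and the trans-Golgi network. The level of Atp9a was 82.6, 83.4 and 97.8 CPM in control and 81.3, 83.4 and 87.8 CPM in the CKO-labelled pools, with control replicate 3 above the other 5. Its log2 fold change was -0.06 with a standard error of 0.089. Atp9b was at 76.0, 74.1 and 72.0 CPM in control and 77.6, 76.0 and 74.0 CPM in the CKO-labelled pools. It was the steadiest of the 8 genes, with a pooled standard deviation between replicates of 0.037 on the log2 scale against a median of 0.16 over all genes tested. Atp9b had a log2 fold change of 0.04, and its 95% interval of -0.12 to 0.19 was the narrowest of the 7. By contrast the pooled standard deviation was 0.50 for Atp10a, the gene with the fewest counts, 0.23 for Atp8a1 and 0.20 for Atp10d.

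Tmem30a (chr9:79768943-79793507, minus strand), the CDC50 subunit that most flippases share, was the most abundant transcript of the 8. It was read at 190, 231 and 183 CPM in control and 209, 189 and 187 CPM in the CKO-labelled pools. The highest pool was control replicate 2, and the other 5 lay within a narrow span. Its log2 fold change was -0.05 with a standard error of 0.11 and a 95% interval of -0.30 to 0.21, and without control replicate 2 it was 0.075. For all 7 of these genes the upper end of the 95% interval was at or below 0.63.

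**Figure D2:**
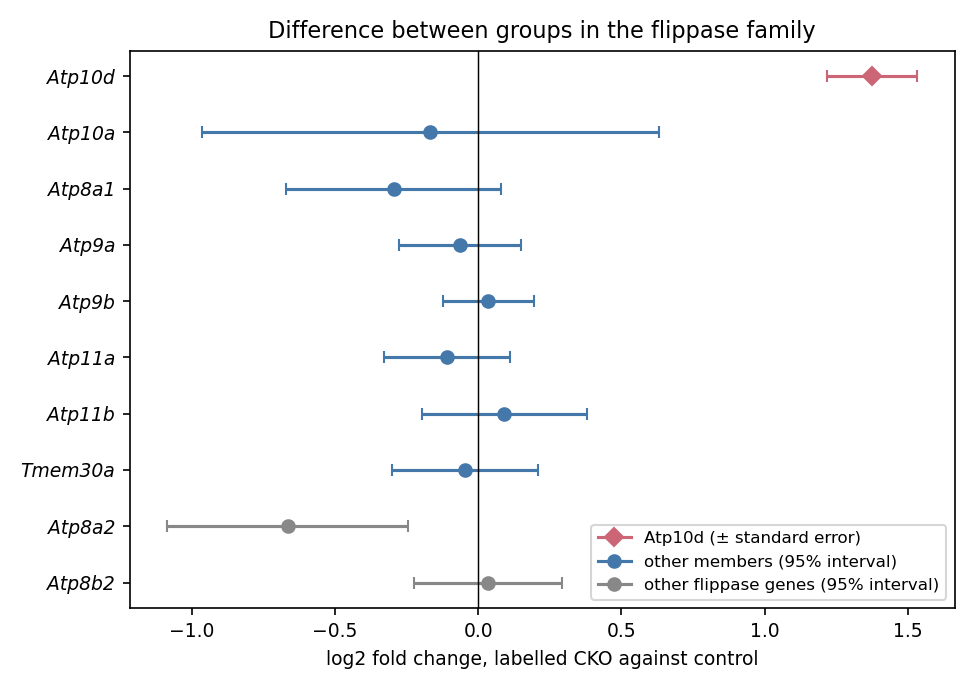
Log2 fold change of CKO-labelled against control pools for 10 flippase genes in the table, with 0 marked by a vertical line. Red is Atp10d with its standard error, blue the other 7 genes and grey 2 further flippase genes, each with a 95% interval. Atp10d is at 1.38, and of the other genes only Atp8a2, at -0.67, has an interval that does not reach 0. Under the filter on mean FPKM, Atp8a2 may have entered the table through the control group alone, and its interval is to be read with this limit.

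A search for 9 further genes of the family found 2 in the table, and Atp8b1, Atp8b3, Atp8b4, Atp8b5, Atp10b, Tmem30b and Tmem30c were not in the table used here. Atp8a2 encodes a phosphatidylserine flippase known from neurons and photoreceptors. It was counted 164, 186 and 273 times in control and 122, 159 and 162 times in the CKO-labelled libraries, or 10.4, 13.1 and 15.2 CPM against 7.91, 8.09 and 8.43 CPM. All CKO-labelled pools were below all control pools, as for 4.69% of genes tested, and the CKO-labelled values were close together. Per kilobase of exon the mean was lower in the CKO-labelled pools, at 0.632 CPM, than in control. Under the authors' filter on mean FPKM in either group, Atp8a2 may have entered the table through the control group alone. Its lack of overlap, its difference and its p-value are to be read with this limit. The log2 fold change was -0.67 with a standard error of 0.18, with an unadjusted p of 0.00737 that did not pass adjustment (adjusted p = 0.837, edgeR's quasi-likelihood test with Benjamini-Hochberg adjustment). The summed level of 8 retina markers, 679 to 1454 CPM in control and 975 to 1357 CPM in the CKO-labelled pools, overlapped between the groups. Both this sum and Atp8a2 were highest in control replicate 3. The sum was lowest in control replicate 2, where Atp8a2 was at 13.1 CPM. It was 1357 CPM in CKO-labelled replicate 3, where Atp8a2 was at 8.43 CPM. The part of retina in the Atp8a2 values was not tested. Atp8b2, which encodes a phosphatidylcholine flippase of the plasma membrane, had a log2 fold change of 0.03 with a standard error of 0.11.

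Levels were compared between genes per kilobase of exon, on control means. Tmem30a led at 55.0 CPM per kb, and its range lay above that of Atp9a at 21.7 CPM per kb. Atp9a and Atp11a, at 19.1 CPM per kb, overlapped, and the range of Atp11a lay above that of Atp11b at 15.5 CPM per kb. Atp11b, Atp9b at 13.6 and Atp8a1 at 13.5 CPM per kb followed, each overlapping the next. Atp10d at 1.60 and Atp10a at 1.24 CPM per kb came last, well below Atp8a1, and overlapped each other in control. In the CKO-labelled pools Atp10d was at 4.15 CPM per kb and Atp10a at 1.11 CPM per kb, with no overlap, and Atp10d was still the second lowest of the 8. With coding length in place of exon length the middle of the order moved, while Tmem30a stayed first, Atp10d seventh and Atp10a last.

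**Figure D3:**
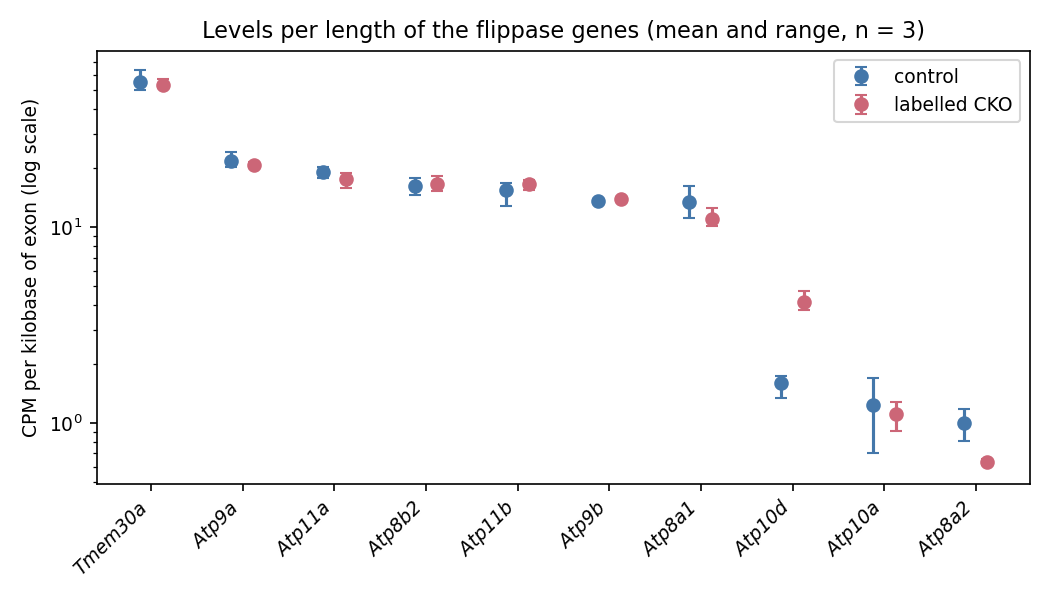
Level of 10 flippase genes per kilobase of exon on a log axis, ordered by the control mean. Points are means and bars the range over 3 pools, blue for control and red for CKO-labelled; Atp10d is at 1.60 CPM per kb in control and 4.15 in the CKO-labelled pools, below the genes from Tmem30a to Atp8a1 in both groups.

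The 9 catalytic genes described here were then summed per kilobase. The sum was 104 ± 2.68 CPM per kb in control pools and 102 ± 4.02 CPM per kb in CKO-labelled pools (SD, n = 3 each), a difference smaller than the spread between pools. Atp10d made up 1.65, 1.72 and 1.28% of this sum in the control pools and 4.51, 3.75 and 3.87% in the CKO-labelled pools. Counts of Atp10d stood to counts of Atp10a at ratios of 1.14, 2.74 and 1.13 in control and 5.83, 3.88 and 3.29 in the CKO-labelled libraries. The high control ratio was that of replicate 2, where Atp10a was lowest. The summed level of the catalytic genes without Atp9a and Atp9b stood to that of Tmem30a at a ratio of 1.25 ± 0.179 in control pools and 1.27 ± 0.0710 in CKO-labelled pools (SD, n = 3 each). The share of Atp10d and its ratio to Atp10a rest on the counts by which Atp10d was chosen, so their rise is a description and no further result. The sum over these genes and its ratio to the common subunit differed between the groups by less than the spread between pools.

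The members were set beside the marker levels of the pools. In control replicate 2, which had the highest fibre markers, Atp8a1 and Tmem30a were at their highest of the 6 pools and Atp10a and Atp11b at their lowest, while Atp9a, Atp9b and Atp11a lay inside the range of the other pools. The Atp10d level there, 10.4 CPM, was next to that of control replicate 1 at 10.5 CPM, whose fibre markers were at 25399 CPM. Markers of periocular mesenchyme, 7 of 8 in the table, were highest in control replicate 1 and CKO-labelled replicate 2, at 1319 and 2489 CPM, and ranged from 151 to 308 CPM in the other 4 pools. Atp10d was at 23.7 CPM in CKO-labelled replicate 2 and at 28.7 CPM in CKO-labelled replicate 1, where the mesenchyme markers were at 151 CPM.

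The summed levels of the other marker lists overlapped between the groups. Summed over 8 lens epithelium markers the range was 1309 to 1877 CPM in control and 1359 to 1503 CPM in the CKO-labelled pools. Blood markers, 7 of 8 in the table of which 3 were at 0 in all libraries, ranged from 383 to 1384 CPM and from 306 to 452 CPM. The range for 8 vessel markers was 301 to 436 CPM and 274 to 360 CPM, that for 6 pigment cell markers 69.8 to 341 CPM and 72.6 to 341 CPM, and that for 8 surface ectoderm markers 46.9 to 109 CPM and 61.4 to 165 CPM. Macrophage markers, 7 of 8 in the table, ranged from 63.6 to 111 CPM and from 59.5 to 75.8 CPM. The part of cell make-up in the Atp10d difference was not tested. In bulk lenses, fewer cells of a type and less RNA per cell cannot be told apart.

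The chromosomal neighbourhood of Atp10d was examined next. No member overlaps another gene of the table. The nearest gene, Corin, which encodes a membrane-bound serine protease that activates natriuretic peptide, lies 1.25 kb beyond the end of Atp10d on the opposite strand. It was read at 4.69, 6.98 and 2.35 CPM in control and 3.83, 2.49 and 1.46 CPM in the CKO-labelled pools, so the groups overlapped and the means were in the order opposite to Atp10d. Its log2 fold change was -0.85 with a standard error of 0.50. On the other side Commd8, of the COMM domain family, ends 35.1 kb before Atp10d, at 48.0, 54.8 and 46.0 CPM in control and 52.5, 57.9 and 52.2 CPM in the CKO-labelled pools. Its log2 fold change was 0.13 with a standard error of 0.096. Farther out, the log2 fold change was 0.09 for Nfxl1 (215 kb after), -0.76 with a standard error of 0.35 for Tec (457 kb after), 0.05 for Gnpda2 (2611 kb before) and 0.04 for Guf1 (2627 kb before), and the gene bodies of the last 2 overlap each other. All 6 had overlapping groups, as did most genes tested, and an adjusted p of 0.9998 in edgeR's quasi-likelihood test.

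**Figure D4:**
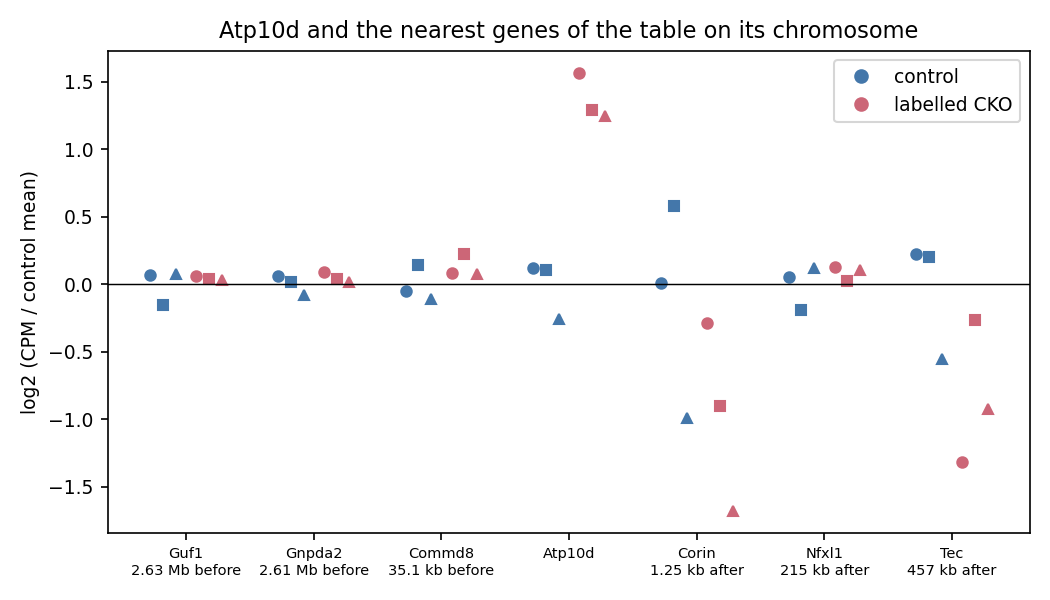
Level of Atp10d and of the 3 nearest genes of the table on each side, as log2 of CPM over the control mean, with the distance to Atp10d under each name. Blue symbols are control pools and red symbols CKO-labelled pools, with circles, squares and triangles for replicates 1, 2 and 3; the 2 colours are apart for Atp10d and overlap for Guf1, Gnpda2, Commd8, Corin, Nfxl1 and Tec.

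GATA factors bind sites built on the letters GATA, and promoter windows from 250 bases before to 50 bases after the RefSeq start were searched for AGATAA and AGATAG, and for TGATAA and TGATAG, on both strands. Of all 32851 windows, 29.8% held at least 1 match. The promoter table has no entry for Atp10d or Atp9b. Among the others, 1 of 4 windows of Atp9a and the 1 window of Tmem30a held a match, and Atp10a, Atp8a1, Atp11a and Atp11b held none. The 2 matches are shown in capitals, on the strand of each gene in RefSeq's GRCm38.p6, since these are the letters the search found among the members. The match of Atp9a reads as TGATAG on the other strand and begins at position -49 from the RefSeq start of its window. That stretch lies inside the annotated gene, whose outermost start on the minus strand is at chr2:168742409. The match of Tmem30a begins at position -237 from the RefSeq start. Neither gene differed between the groups by the test.
Atp9a, chr2:168734371-168734400: tccagctgtgagCTATCAcacccagagtgc
Tmem30a, chr9:79793650-79793679: cagaagtctccaTGATAAccacaacaggaa

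Genes whose level over the 6 pools was most like that of Atp10d were found by the root mean square difference of log2 CPM, each gene centred on its own mean. The 5 closest were Nptx2 at 0.16, Ryr3 at 0.17, Eva1a at 0.23, Ednrb at 0.23 and Rian at 0.24, against a median of 0.73 over all other genes tested. Ryr3, the ryanodine receptor 3 calcium channel, was at 12.7, 10.8 and 9.05 CPM in control and 32.9, 23.2 and 19.5 CPM in the CKO-labelled pools. Like Atp10d it was lowest in control replicate 3 and, of the CKO-labelled pools, highest in replicate 1. Nptx2, a neuronal pentraxin, was at 1.77, 1.97 and 1.73 CPM in control and 4.34, 4.48 and 4.01 CPM in the CKO-labelled pools, from 28 to 88 counts a library. These genes are named by their likeness to a gene chosen on the contrast, so their differences carry no test here.

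Genes that act beside flippases were read from lists. Of 15 scramblase genes 10 were in the table, with 7 log2 fold changes above 0 and 3 below, a median of 0.05 and a range of -0.15 to 0.18. Ano6, the calcium-activated scramblase that exposes phosphatidylserine, had a log2 fold change of 0.04, Xkr8, the caspase-activated one, of 0.09 and Plscr1 of 0.18. None of the 10 passed the test or had groups that did not overlap, beside 3.67% (CKO-labelled higher) and 4.69% (lower) of all genes. Phosphatidylserine is the main cargo of the ATP8A and ATP11 pumps. Of 5 genes that make, carry or convert it, 2 were above 0 and 3 below, with a median of -0.06. The synthases Ptdss1 and Ptdss2 were at log2 fold changes of -0.06 and -0.09, and Pisd, which converts phosphatidylserine to phosphatidylethanolamine, at -0.15.

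Glucosylceramide is the lipid known to be handled by ATP10D. All 8 genes listed for its synthesis, transfer and breakdown, or for glycolipids made from it, were in the table. Their log2 fold changes were above 0 for 6 and below 0 for 2, with a median of 0.03 and a range of -0.065 to 0.12. Ugcg, the synthase, was at 70.9, 60.9 and 69.7 CPM in control and 72.5, 74.3 and 72.4 CPM in the CKO-labelled pools. Its groups did not overlap, though the gap was small, and its log2 fold change of 0.12 with a standard error of 0.083 did not pass the test (adjusted p = 0.9998, edgeR's quasi-likelihood test). Gba2, the non-lysosomal glucosylceramidase, was at a log2 fold change of 0.00. Over the list, 0 of 8 genes passed the test, and 1 of 8 had CKO-labelled pools all above control pools, beside 3.67% of all genes.

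The 4 listed partners of the ATP9 pumps all had log2 fold changes below 0, with a median of -0.14. Mon2, a scaffold of the endosome and trans-Golgi network, was at -0.04 and Dopey2, which binds it, at -0.25 with a standard error of 0.12. None of the 4 passed the test, and their groups overlapped, as they did for most genes tested. Of 20 other P-type ATPases 12 were in the table, 6 above and 6 below 0, with a median of 0.01 and 0 calls. Among these the calcium pump of the endoplasmic reticulum Atp2a2 was at a log2 fold change of 0.02, the plasma membrane calcium pump Atp2b1 at 0.07 and Atp13a1, a dislocase of the endoplasmic reticulum, at 0.02. In 1 of the 12, Atp2c1, named after its values were seen, the CKO-labelled pools lay below the control pools, beside 4.69% of all genes, with a log2 fold change of -0.18 that did not pass the test.

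Of 8 ABC transporters that export lipids 6 were in the table, 2 above and 4 below 0, with a median of -0.03. Abca1, which exports cholesterol and phospholipid to apolipoprotein, was at a log2 fold change of -0.12 and Abcc1 at -0.06. Abcb1b, one of the mouse P-glycoprotein genes, was named after its values were seen. Its counts were 51, 91 and 32 in control and 201, 229 and 169 in the CKO-labelled libraries, or 3.23, 6.41 and 1.79 CPM against 13.03, 11.6 and 8.79 CPM. All CKO-labelled pools were above all control pools, as for 3.67% of genes tested. Per kilobase of exon the mean was 0.885 CPM in control and 2.59 CPM in the CKO-labelled pools. Under the filter on mean FPKM in either group, Abcb1b may have entered the table through the CKO-labelled group alone. Its difference and p-value are to be read with this limit. The log2 fold change was 1.56 with a standard error of 0.45, which did not pass adjustment (unadjusted p = 0.0113, adjusted p = 0.979, edgeR's quasi-likelihood test with Benjamini-Hochberg adjustment). With each library left out in turn it ranged from 1.21 to 2.17, the highest being without control replicate 2. The log2 fold change was 0.39 with DESeq2 and a prior that shrinks fold changes. Abcb1b has a close copy, Abcb1a, and how reads were shared between them is not given in the sources used here.

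**Figure D5:**
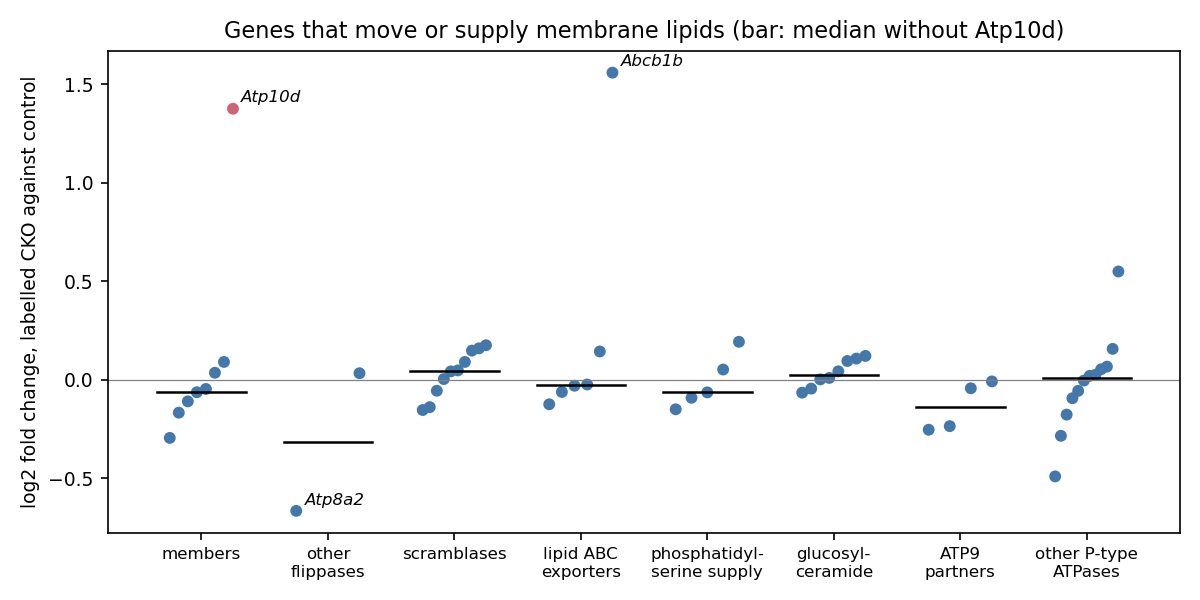
Log2 fold change of CKO-labelled against control pools for every tested gene of the lists, 1 point a gene, with a bar at the median of each list, Atp10d left out of its own. Atp10d, in red, is at 1.38 and Abcb1b at 1.56, Atp8a2 is at -0.67, and the medians of the lists other than the 2 further flippases lie between -0.14 and 0.05.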

How the data were processed

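The 6 libraries, 3 control and 3 labelled CKO, were polyA-selected and stranded. The authors aligned reads to mm10 with TopHat2 2.0.13, counted fragments per RefSeq gene with HTSeq 0.6.1, and deposited these raw counts for genes that passed a filter on mean FPKM in either group. The HTSeq options for strand and overlap are not given in the sources used here. Titles of the CKO samples number them 1 to 3 and were followed, although their descriptions use 2 to 4.

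After TMM normalization, 12879 genes that reached 10 counts in 3 or more libraries were tested with the robust quasi-likelihood method of edgeR 4.0.16, run in R 4.3.3, and p-values were adjusted by Benjamini-Hochberg at 0.05. Exon and coding lengths and positions came from GENCODE M21, with transcripts that have a RefSeq match, and sequences from its transcripts and from RefSeq. Alternatives were DESeq2 1.42.0 (a prior on fold changes off or on), voom in limma 3.58.1, other normalization factors and count filters, the replicate number as a block, and each library left out. Figures were drawn with matplotlib 3.10.9.

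The members and lists were chosen with earlier results of these data known. Genes named are the members, further flippase genes, pathway genes fixed by role, the 3 nearest genes of the table on each side of Atp10d, the 5 genes most like it and Gata3, and certain genes of the lists are not reported here. The labels call the pools replicates, and the p-values set the difference between groups against the spread between these pools, estimated with information from all genes tested. The depth gives 54 or more counts to every member in every library. How much of the spread between pools is counting noise was not tested.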

Additional observations from a re-analysis of the deposited data

How the results depend on the processing

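With 3 pools a group, a difference smaller than the intervals given could not be seen. The log2 fold change of Atp10d was 0.92 with the prior of DESeq2, which shrinks it by construction, and 1.26 to 1.46 with each library left out. None of the 7 members other than Atp10d, which was not tested, was called under any of the 15 alternatives. With library totals alone, which moved the median of all genes by 0.10, the log2 fold change was 0.035 for Atp9a and 0.066 for Tmem30a, in place of values below 0. With each library left out it ranged from -0.44 to 0.15 for Atp10a, -0.095 to 0.020 for Atp9a, -0.016 to 0.17 for Atp11b, -0.11 to 0.075 for Tmem30a, -0.043 to 0.10 for Atp8b2 and -0.018 to 0.095 for Guf1, each turning direction at least once. The cause was not tested. Of 15 pathway genes named by role, 12 turned direction under some alternative, within -0.41 to 0.39, and 0 were called under any. Over all genes the calls numbered 0 in the main test, 85 and 78 in DESeq2 without and with the prior, and 1 with library totals alone or without control replicate 3. With the replicate number as a block Atp10d was at 1.38 and 0 genes were called. Same-numbered libraries correlated in their deviations from group means at -0.483, 0.091 and 0.432, and control replicate 1 with CKO-labelled replicate 2 at 0.554. With 3 pools a group, such deviations also carry differences in tissue make-up. They therefore cannot decide whether same-numbered pools shared a litter or day, and the main test assumed no pairing.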
